A study of Homo sapiens with 12 samples.

Results

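The replication-dependent histone genes encode the core histones H2A, H2B, H3 and H4 and the linker histone H1 that package newly made DNA. The rows described here carry a single gene symbol that starts with H2AC, H2BC, H3C or H4C and a number, or that is H1-1, H1-2, H1-3, H1-4 or H1-5, with the brightest row kept for each gene. This rule used no measured difference and found 49 genes among 22011 rows, of which 14432 had 1 symbol and together named 14232 genes. The 49 genes comprised 5 H1, 11 H2A, 13 H2B, 9 H3 and 11 H4 genes, and each had a single row. RefSeq lists 69 protein-coding genes whose symbols fit the rule. Of these, 49 were measured, 10 lay only on 5 rows that name several genes, and 10 were not analysed here.

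Messenger RNA of these genes is made in bulk during S phase, ends in a stem-loop in place of a poly(A) tail, and is processed and stabilised by the stem-loop binding protein SLBP. Transcription is activated in histone locus bodies, where the coactivator NPAT gathers at the clustered genes. The genes of a class encode nearly identical proteins, and their transcripts resemble each other, so the probes of a row may also read its relatives. Every single-gene value below is uncertain to that extent.

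The study used HEK293, a human embryonic kidney cell line transformed with adenovirus DNA, in 4 groups of 3 biological replicates. The GFP group received nuclear GFP, and the full-length group received full-length MED12, a subunit of the Mediator kinase module, carrying a nuclear GFP tag at the N-terminus. The PQL/Opa-deleted group received the same tagged MED12 without the PQL and Opa domains. All of these constructs were in pcDNA5/TO with an engineered Kozak sequence. The shRNA group received hairpin 5 against MED12, transcribed from an H1 promoter in peGFP-C1; this promoter belongs to an RNA gene and not to histone H1. The hairpin vector therefore differed from the vector of the GFP control, and no group received a control hairpin. Every group was transfected with Lipofectamine 2000, 24 h after plating, and viable GFP-positive cells were sorted for 20 min at 48 h after transfection. Total RNA was amplified with NuGEN WT-Ovation Pico and Exon Module kits and hybridised to Affymetrix exon arrays, 12 in all. The values are log2 RMA signals per transcript cluster, which can be compared between arrays for 1 row but not between rows, since each row has its own probes. What the numbers of the biological replicates stand for, beyond separate samples, is not given in the sources used here.

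The promoters of the histone classes carry different short motifs, and a stretch from the brightest gene of each class that has a single RefSeq window shows this layout. RefSeq windows on GRCh38.p14, from 250 bases before to 50 bases after the start, were found for 44 of the 49 genes; H4C3, H3C11, H3C12, H2AC12 and H4C1 had none. Of the 44, 39 lie on chromosome 6, 4 on chromosome 1 and 1 on chromosome 12. Each stretch reads 5′ to 3′ on the gene's strand and ends at the base before the start. Capitals mark matches on either strand to any of 5 motifs. These are TATAA, the core of the TATA box (reverse form TTATA), then CCAAT, the CCAAT box (ATTGG), then ATTTGCAT, the octamer (ATGCAAAT), then AAACACA, the H1 box (TGTGTTT), and last GGTCCG, the core of the H4 promoter element (CGGACC). Overlapping matches run together.
H1-4 promoter stretch, chr6:26156179-26156328, plus strand: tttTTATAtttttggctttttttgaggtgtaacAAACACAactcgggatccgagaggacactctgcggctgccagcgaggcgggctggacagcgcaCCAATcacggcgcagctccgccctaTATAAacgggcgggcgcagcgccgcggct
H2AC6 promoter stretch, chr6:26124022-26124171, plus strand: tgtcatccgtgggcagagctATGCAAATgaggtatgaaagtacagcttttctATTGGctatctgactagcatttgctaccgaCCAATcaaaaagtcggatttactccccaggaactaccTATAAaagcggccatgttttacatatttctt
H2BC7 promoter stretch, chr6:26199366-26199515, plus strand: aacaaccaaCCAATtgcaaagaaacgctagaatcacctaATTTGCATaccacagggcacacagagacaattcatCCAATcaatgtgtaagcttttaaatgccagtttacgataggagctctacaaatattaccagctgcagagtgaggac
H3C7 promoter stretch, chr6:26250636-26250785, minus strand: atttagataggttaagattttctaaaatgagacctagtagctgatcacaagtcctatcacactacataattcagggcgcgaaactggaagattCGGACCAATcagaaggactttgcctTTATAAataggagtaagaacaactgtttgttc
H4C8 promoter stretch, chr6:26285535-26285684, minus strand: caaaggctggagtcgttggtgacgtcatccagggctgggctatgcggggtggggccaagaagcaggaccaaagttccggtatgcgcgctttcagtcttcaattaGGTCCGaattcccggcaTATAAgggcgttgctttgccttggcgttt

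The H1-4 stretch holds the H1 box as well as a CCAAT box and a TATA box core. The H1 box occurred on either strand in 5 of 5 H1 windows and in no window of the other classes, against 5.64% of 35116 RefSeq promoter windows of the same length. The H2AC6 and H2BC7 stretches hold the octamer, which was present in 8 of 10 H2A and 10 of 13 H2B windows, in no H1, H3 or H4 window, and in 1.77% of all windows. The H4C8 stretch holds the H4 element core and no CCAAT box. The core was found in 8 of 9 H4 windows, in each of them on the gene's strand and 44 to 46 bases before the start, and elsewhere in H2BC21 and H3C7 only, against 11.3% of all windows. In H3C7 its reverse form overlaps a CCAAT box. The CCAAT box was present in every H1, H2A, H2B and H3 window and in 3 of 9 H4 windows, against 34.6% of all windows. The TATA box core, which can overlap its own reverse form, was in 41 of 44 genes and 20.4% of all windows, and in 32 genes it began 28 to 32 bases before the start on the gene's strand. A match is a run of letters and not a measured binding site.

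The row of MED12, the targeted gene, followed the labels in every sample. It read 4.03, 4.56 and 4.66 on the GFP arrays and 10.63, 10.66 and 10.75 with the full-length construct. With the PQL/Opa-deleted construct it read 8.62, 8.90 and 9.25, and with the hairpin 3.63, 3.63 and 3.74. The hairpin arrays lay below GFP without overlap, with a log2 difference of -0.75. In limma's moderated test this hairpin difference had an unadjusted p of 0.00308 and an adjusted p of 0.730. The lower MED12 signal with the hairpin therefore did not pass the test used below. Of 6 measured genes known from HEK293, KRT8, VIM, CDH2, NEFM and PAX2 lay above the 75th percentile of rows, and KRT18 lay at percentile 49.5. Of 4 measured markers of other cell types, COL1A1 of fibroblasts lay at percentile 65.5 and PTPRC, ALB and PECAM1 lay between percentiles 8.35 and 19.8. Some arrays had a narrower range of values than others. The SD over all rows was 1.34 on the first shRNA array, 1.40 on the first GFP array and 1.45 on the first PQL/Opa-deleted array, and ran from 1.47 to 1.60 on the other 9.

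The width of the array was visible in part in the histone genes themselves. The SD over the 49 genes was 1.36, 1.38 and 1.51 on those narrow arrays and between 1.48 and 1.72 on the other 9. Of the 49 genes, 17 lay above the 75th percentile of rows, 14 at or below the 25th and 18 between. Of the 17 bright genes, 11 were lowest of the GFP group on GFP replicate 1, 11 were lowest of their group on PQL/Opa-deleted replicate 1, and 8 on shRNA replicate 1; for all rows above the 75th percentile these shares were 66.7%, 59.6% and 63.7%. Of the 14 dim genes, 11 were highest of their group on GFP replicate 1, 8 on PQL/Opa-deleted replicate 1 and 7 on shRNA replicate 1, against 72.5%, 68.8% and 67.3% of all rows at or below the 25th percentile. H2AC6, H2AC8, H2BC21, H3C11, H4C1, H4C3, H4C5, H4C8 and H4C9 were lowest on replicate 1 in all 4 groups, which is 9 of 49 genes against 9.26% of all rows. Of the 17 bright genes 5 did so, against 24.7% of bright rows, and no histone gene was highest on replicate 1 in all 4 groups, against 12.3% of all rows. Values without these 3 arrays, or without 1 of them, are given beside many of the class and gene results that they move, but not beside all. The part of array width in those results was not tested.

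**Figure D1:**
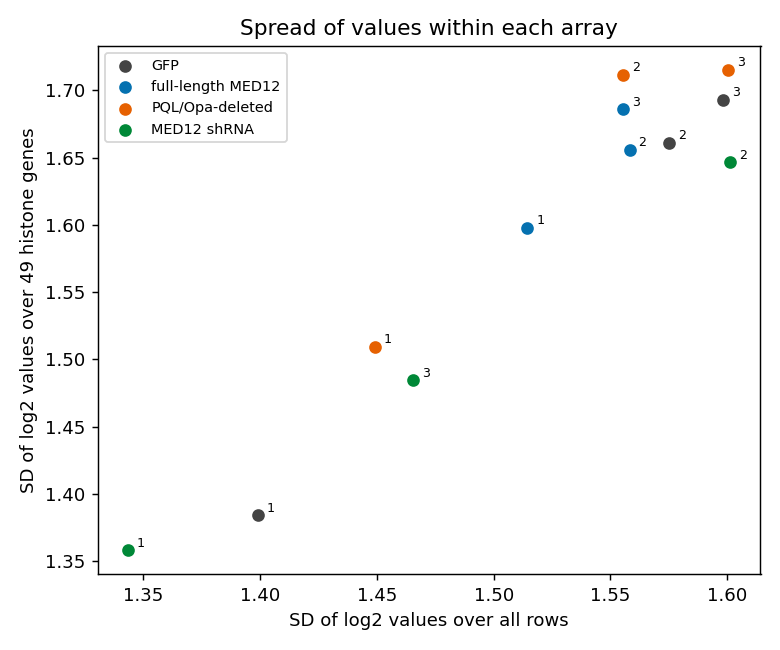
SD of the log2 values over the 49 histone genes (vertical axis) against the SD over all 22011 rows (horizontal axis), 1 point per array, coloured by group and numbered by replicate. The first replicates of shRNA, GFP and PQL/Opa-deleted have the lowest SDs over all rows, at 1.34, 1.40 and 1.45. On the vertical axis PQL/Opa-deleted replicate 1, at 1.51, lies above shRNA replicate 3, at 1.48.

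None of the 49 histone genes passed the threshold of an adjusted p of 0.05 in any comparison. The test was limma's moderated test on all 12 arrays, two-sided, with Benjamini-Hochberg adjustment over the 22011 rows, of which few passed at all: 0.0136% with full-length MED12 against GFP, 0.00454% with PQL/Opa-deleted MED12, 0.0681% with the hairpin and 0.00454% between the constructs. In limma's F test for any difference among the 4 groups, 0 genes passed against 0.0863% of rows, and 0 had an unadjusted p under 0.05 against 4.62% of rows. The smallest F test p among the 49 was 0.0505, for H2BC5. At an unadjusted p under 0.05 in single comparisons, limma gave 1 histone gene with full-length MED12 (2.8% of rows), 2 with PQL/Opa-deleted MED12 (3.46% of rows), 1 with the hairpin (5.04% of rows) and 3 between the constructs (1.9% of rows). These counts are 2.04%, 4.08%, 2.04% and 6.12% of the histone genes.

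The histone genes were measured with less precision than most rows. The median SD within a group was 0.48 for the 49 genes and 0.28 for all rows, and 42 of the 49 lay above the latter. It was lowest for H2AC17 at 0.18 and highest for H4C13 at 0.94. The median standard error of a difference was 0.35, against 0.23 over all rows. A 95% interval of the difference from GFP lay wholly within 2-fold in either direction for 27 of 49 genes with full-length MED12, 24 with PQL/Opa-deleted MED12 and 24 with the hairpin, against 81.0%, 81.0% and 79.5% of rows. For the other genes the interval holds changes of 2-fold or more, so such a change is not bounded with 3 arrays per group.

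**Figure D2:**
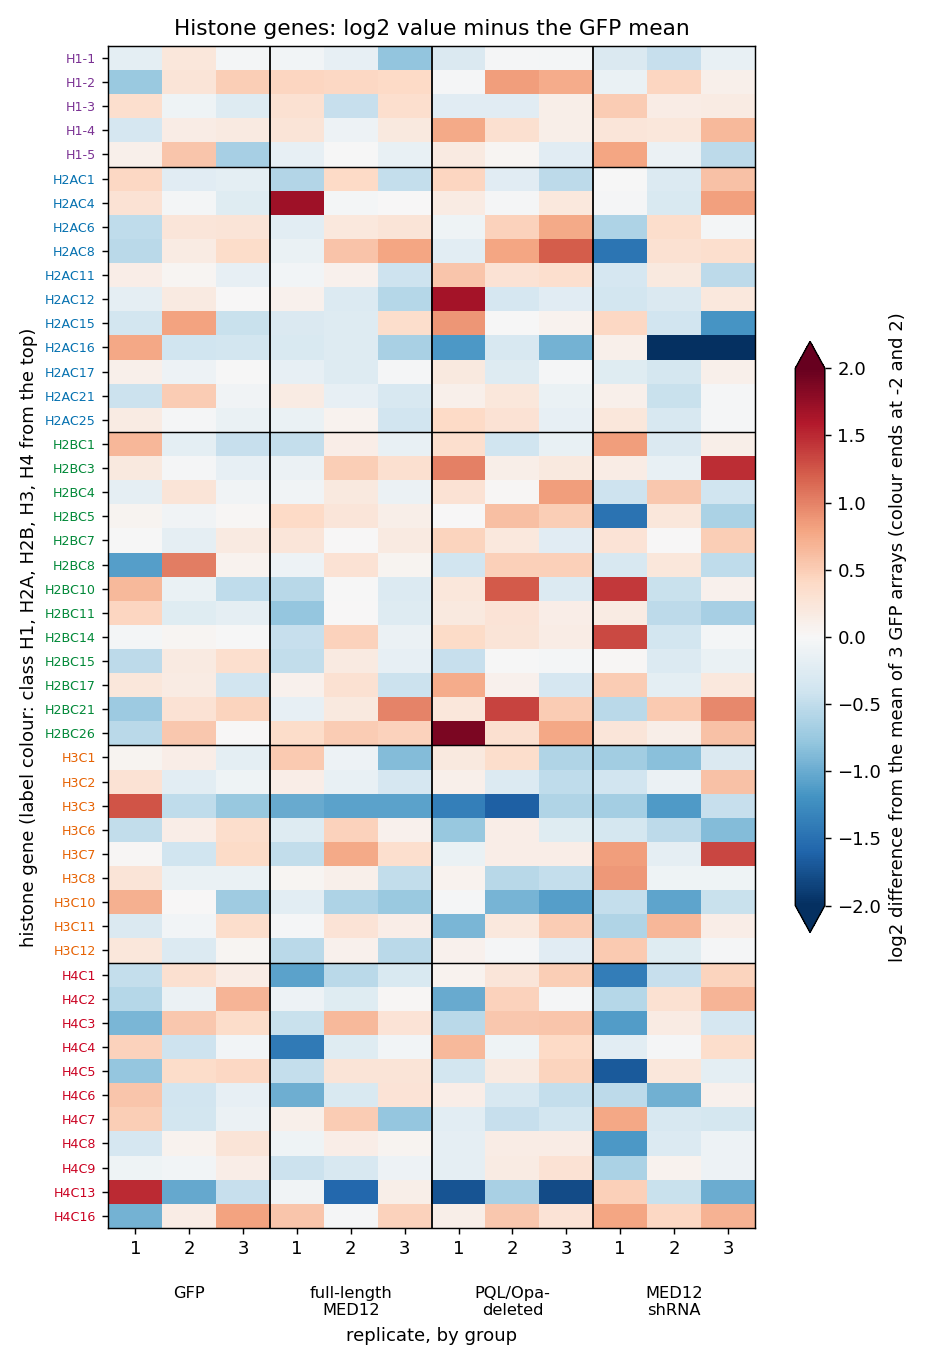
Log2 value of each of the 49 histone genes (rows, ordered by class) on each of the 12 arrays (columns, by group and replicate), minus the mean of the 3 GFP arrays. Red is above and blue below that mean, and colour ends at -2 and 2. H2AC16 is blue on hairpin replicates 2 and 3, at 3.23 and 3.51 against a GFP mean of 5.66.

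With full-length MED12 the histone genes lay on both sides of GFP. Of 49 genes, 20 were above and 29 below, with a median log2 difference of -0.11, against -0.0066 over all rows and 48.6% of rows above 0. H2A genes had a median of -0.13, with 3 above and 8 below, and H4 genes one of -0.11, with 4 above and 7 below. H3 genes had a median of -0.12, H1 genes 0.06 and H2B genes 0.01. Without the narrow arrays the H4 median was -0.30, with 2 above and 9 below, that of H2A was -0.07 and that of H1 turned to -0.05. Leaving out 1 array at a time gave medians of -0.07 to 0.22 for H1, -0.09 to 0.09 for H2B, -0.23 to 0.07 for H3 and -0.22 to -0.03 for H2A; H3 was above 0 only without full-length replicate 3, and H2B below 0 only without full-length replicate 2. Since histone messenger RNA is abundant in S phase cells, a smaller share of such cells and less RNA per cell cannot be told apart in these bulk samples. The groups did not overlap for 3 genes: H2BC5 was above GFP, and H3C3 and H4C9 were below, which is 6.12% of the histone genes against 7.72% of rows.

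With PQL/Opa-deleted MED12, H2B and H2A genes lay mostly above GFP and H3 genes mostly below, though no gene passed the test. Of 13 H2B genes, 11 were above GFP, with a class median of 0.26, and of 11 H2A genes 8 were above, with a median of 0.18. Of 9 H3 genes, 8 were below, with a median of -0.23. H4 genes had a median of 0.09, with 7 of 11 above, and H1 genes -7.5e-04, with 2 of 5 above. Over all 49 genes 29 were above and the median was 0.09, against -0.0079 and 48.4% over all rows. Without the narrow arrays the overall median was -0.0086. H2B kept a median of 0.25 with 9 above and 4 below, and H3 one of -0.24 with 2 above and 7 below, whereas H2A moved to -0.08 and H4 to -0.07. H2AC11 and H2BC14 did not overlap with GFP and were above it, which is 4.08% of the genes against 7.92% of rows.

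Same-numbered PQL/Opa-deleted and GFP arrays were treated as pairs in a separate fit, as their deviations correlated above a limit of 0.1. The intervals and p-values elsewhere in the text ignore this pairing unless a replicate block is named. The correlation was highest, at 0.472, for replicate 1, which is narrow in both groups. The part of array width in it was not tested. With the replicate number as a block, limma called 0 histone genes in this comparison too, against 0.00909% of rows. Its count at an unadjusted p under 0.05 rose from 2 to 9 genes, against 6.35% of rows, and the smallest adjusted p among the 49 was 0.742. Of the 9, H1-2, H2AC6, H2AC8, H2AC11, H2BC21 and H2BC26 were above GFP, and H3C3, H3C10 and H4C13 were below.

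With the MED12 hairpin, 23 of 49 genes were above GFP and 26 below, with a median of -0.09, against 0.02 and 54.4% of rows above 0. H4 genes had the lowest class median, -0.32, with 4 above and 7 below. H2A genes had a median of -0.15, with 2 above and 9 below. H2B genes had a median of 0.22 with 8 of 13 above, H1 genes 0.13 with 4 of 5 above, and H3 genes 0.03 with 5 of 9 above. Without the narrow arrays the H4 median was -0.10, that of H2A -0.09, that of H2B 0.08, that of H3 -0.02 and that of H1 -0.11. Without shRNA replicate 1 alone, the H2B median was -0.09 with 6 of 13 above, that of H3 was -0.13 and that of H4 was -0.01. H1-4 lay above GFP without overlap and H3C1 below, which is 4.08% of the genes against 8.56% of rows.

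**Figure D3:**
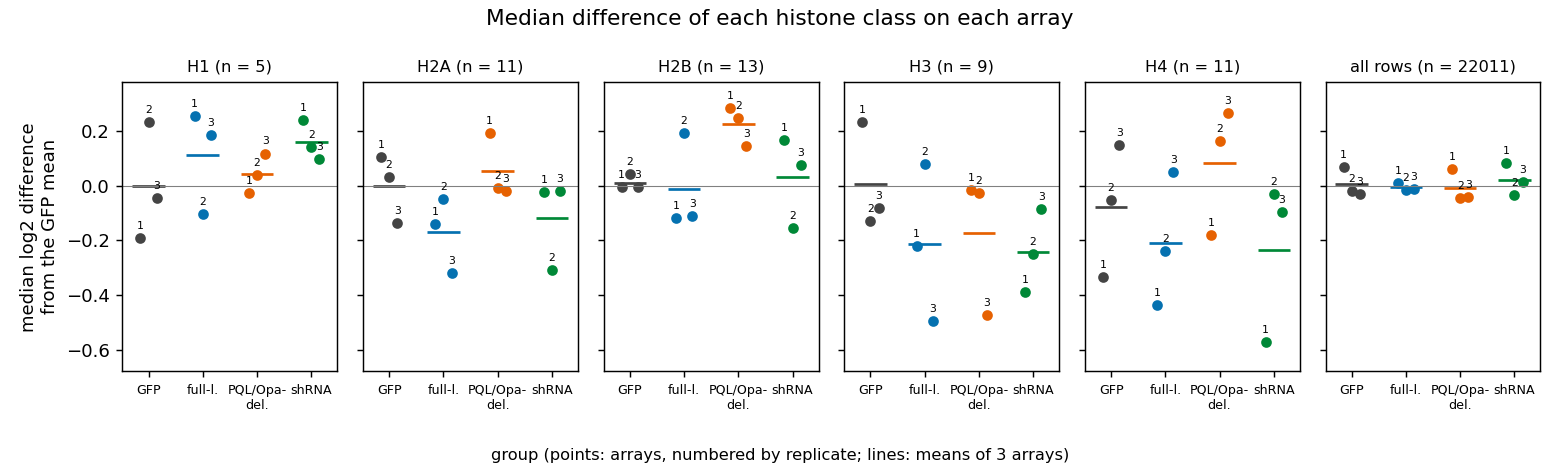
Median over the genes of each histone class, and over all rows, of the log2 difference from the mean of the 3 GFP arrays, 1 point per array numbered by replicate, with lines at the mean of 3 arrays. The H2B points of PQL/Opa-deleted MED12 lie above 0 on all 3 arrays, while the H4 points spread as widely within groups as between them and replicate 1 is the lowest H4 point of each group.

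The linker histones H1 bind the DNA between nucleosomes. H1-4, the brightest H1 row, read 4.98, 5.45 and 5.50 with GFP, 5.57, 5.20 and 5.50 with full-length MED12, 6.06, 5.63 and 5.43 with PQL/Opa-deleted MED12, and 5.55, 5.53 and 5.95 with the hairpin. Only the hairpin group lay wholly above GFP. The log2 differences were 0.40 with the PQL/Opa-deleted construct (95% interval -0.07 to 0.87) and 0.37 with the hairpin (-0.10 to 0.84), with unadjusted limma p of 0.0893 and 0.112. They ranged from 0.22 to 0.54 and from 0.21 to 0.46 when 1 array was left out. Without the narrow arrays together, the PQL/Opa-deleted difference was 0.06. The lowest GFP value and the highest PQL/Opa-deleted value were on replicate 1, which is narrow in both groups. H1-1 read 3.67, 4.09 and 3.82 with GFP and 3.81, 3.70 and 3.07 with full-length MED12. Its difference of -0.33 (-0.79 to 0.13) was -0.10 without full-length replicate 3, and the groups overlapped.

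H2A and H2B form the dimers that flank the central H3-H4 tetramer of the nucleosome. H2AC6, the brightest H2A row, read 5.12, 5.87 and 5.88 with GFP, 5.42, 5.83 and 5.88 with full-length MED12, 5.53, 6.08 and 6.38 with PQL/Opa-deleted MED12, and 5.01, 5.98 and 5.58 with the hairpin. In each group replicate 1 was the lowest, and every group overlapped with GFP. The differences from GFP were 0.09, 0.38 and -0.10, each with a standard error of 0.30, and the first turned to -0.16 without the narrow arrays and the last to 0.16 without shRNA replicate 1. H2BC7, the brightest H2B row, read 6.27, 6.10 and 6.46 with GFP, 6.51, 6.29 and 6.45 with full-length MED12, 6.72, 6.49 and 6.05 with the PQL/Opa-deleted construct, and 6.54, 6.29 and 6.77 with the hairpin. All its groups overlapped, and its 95% intervals lay within -0.30 and 0.70, so changes of 2-fold lie outside them.

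H2AC16 had the lowest hairpin difference of the 49 genes. It read 6.43, 5.26 and 5.30 with GFP, 5.36, 5.40 and 5.02 with full-length MED12, 4.52, 5.34 and 4.71 with PQL/Opa-deleted MED12, and 5.76, 3.23 and 3.51 with the hairpin. Hairpin replicates 2 and 3 were lower than every other array, but replicate 1 lay among the GFP values, so the groups overlapped. The log2 difference was -1.50 with a standard error of 0.56 (95% interval -2.72 to -0.27) and an adjusted limma p of 0.946. Leaving out 1 array in turn moved it between -2.29, without shRNA replicate 1, and -1.03, without shRNA replicate 2, and in no case was it called. Without the narrow arrays, which remove the first replicate of both groups, it was -1.91 with a standard error of 0.24, and it passed with an adjusted limma p of 0.0386, the only histone gene to do so, against 0.0727% of rows. The narrow arrays were set apart by their SDs in these same data, with the cut between 1.45 and 1.47. Leaving them out drops shRNA replicate 1, the hairpin array that lay among the GFP values, and keeps only replicates 2 and 3 of both groups. The pass is therefore not independent of that choice. With the replicate block the adjusted limma p of H2AC16 was 0.456. Its promoter stretch is shown because no other histone gene passed the threshold under any setting run.
H2AC16 promoter stretch, chr6:27865097-27865316, plus strand: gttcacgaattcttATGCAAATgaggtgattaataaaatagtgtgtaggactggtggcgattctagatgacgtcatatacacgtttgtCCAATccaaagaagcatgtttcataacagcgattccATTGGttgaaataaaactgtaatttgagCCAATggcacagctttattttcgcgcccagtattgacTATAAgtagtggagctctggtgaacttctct
The capitals mark an octamer, 3 CCAAT matches counting both strands, and a TATAA, motifs that other H2A windows hold as well.

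H2BC26 had the highest difference with PQL/Opa-deleted MED12. It read 2.01, 3.09 and 2.55 with GFP, 2.91, 3.05 and 3.01 with full-length MED12, 4.44, 2.87 and 3.32 with the PQL/Opa-deleted construct, and 2.79, 2.66 and 3.13 with the hairpin. The first PQL/Opa-deleted array was higher than every other and the first GFP array lower, and the other values overlapped. The difference was 1.00 with a standard error of 0.36 (0.20 to 1.79, unadjusted limma p 0.0182), and it ranged from 0.55 to 1.33 when 1 array was left out. Both of these first arrays are narrow. Without the narrow arrays together the unadjusted limma p of H2BC26 was not under 0.05. H2AC11 read 3.74, 3.64 and 3.43 with GFP and 4.15, 3.89 and 3.94 with PQL/Opa-deleted MED12, a difference of 0.39 (-0.07 to 0.85) without overlap. H2AC4 read 2.69, 2.36 and 2.15 with GFP and 4.10, 2.35 and 2.41 with full-length MED12, so its difference of 0.55 rests on 1 full-length array and was -0.02 without it. H2BC11 read 3.33, 2.66 and 2.73 with GFP and 2.13, 2.91 and 2.65 with full-length MED12, and the groups overlapped. H2BC5 read 4.80, 4.67 and 4.78 with GFP, 5.15, 4.99 and 4.86 with full-length MED12 and 3.27, 4.98 and 4.12 with the hairpin; the hairpin difference was -0.63 (-1.36 to 0.10), and -0.21 without shRNA replicate 1.

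H3 genes carry the histone tail whose lysines receive many of the known chromatin marks. H3C6, the brightest H3 row, read 4.02, 4.64 and 4.87 with GFP, 4.25, 4.97 and 4.60 with full-length MED12, 3.76, 4.65 and 4.26 with PQL/Opa-deleted MED12, and 4.15, 3.99 and 3.64 with the hairpin. The hairpin values overlapped with GFP only through the first GFP array, and the difference was -0.58 (-1.21 to 0.05, unadjusted limma p 0.0662). It ranged from -0.83 to -0.40 when 1 array was left out. H3C3 was below GFP with both constructs, at unadjusted limma p of 0.0381 and 0.0203. It read 3.61, 1.85 and 1.60 with GFP, 1.35, 1.28 and 1.29 with full-length MED12, 0.98, 0.72 and 1.75 with the PQL/Opa-deleted construct, and 1.68, 1.22 and 1.89 with the hairpin. The first GFP array stood apart, at 3.61, in a row at percentile 4.18 of all rows. The differences of -1.05 and -1.20 share the same GFP arrays, and without GFP replicate 1 they were -0.42 and -0.57.

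H4 pairs with H3 in the nucleosome core, and 3 H4 rows, H4C3, H4C8 and H4C5, lay at percentiles 97.0, 96.6 and 96.1 of all rows. H4C3 read 6.57, 8.03 and 7.85 with GFP, 7.04, 8.12 and 7.75 with full-length MED12, 6.94, 8.02 and 8.04 with PQL/Opa-deleted MED12, and 6.37, 7.65 and 7.14 with the hairpin. Replicate 1 was the lowest in each group, and all groups overlapped. H4C8 read 7.01, 7.42 and 7.60 with GFP, 7.26, 7.48 and 7.40 with full-length MED12, 7.17, 7.50 and 7.49 with the PQL/Opa-deleted construct, and 6.20, 7.06 and 7.24 with the hairpin. H4C5 read 6.34, 7.48 and 7.53 with GFP and 5.43, 7.33 and 6.92 with the hairpin. The hairpin differences were -0.43 for H4C3 (-1.45 to 0.59), -0.51 for H4C8 (-1.07 to 0.05; unadjusted limma p 0.0726) and -0.55 for H4C5 (-1.58 to 0.48). The hairpin arrays of all 3 genes overlapped with GFP. Without shRNA replicate 1, the narrowest array, these differences were -0.09, -0.19 and 0.02, and without the narrow arrays together -0.54, -0.36 and -0.37. With the constructs, H4C8 differed from GFP by 0.04 both times, with intervals from -0.53 to 0.60 and from -0.52 to 0.61. H4C1 read 2.57, 3.37 and 3.20 with GFP and 1.98, 2.51 and 2.74 with full-length MED12, a difference of -0.64 (-1.50 to 0.22). Without the narrow arrays this difference was -0.88. Same-numbered arrays of the full-length and GFP groups correlated at 0.101 to 0.229, past the limit of 0.1. With the number as a block H4C1 had an unadjusted limma p of 0.0298 and an adjusted one of 0.942. In that fit H3C3 and H4C1 were the 2 histone genes with an unadjusted p under 0.05, against 5.28% of rows, and 0 passed the adjusted threshold, against 0.0182% of rows. H4C13 read 4.50, 1.99 and 2.54 with GFP and 1.29, 2.36 and 1.23 with the PQL/Opa-deleted construct, a difference of -1.38 (-2.81 to 0.04) that was -0.64 without GFP replicate 1.

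**Figure D4:**
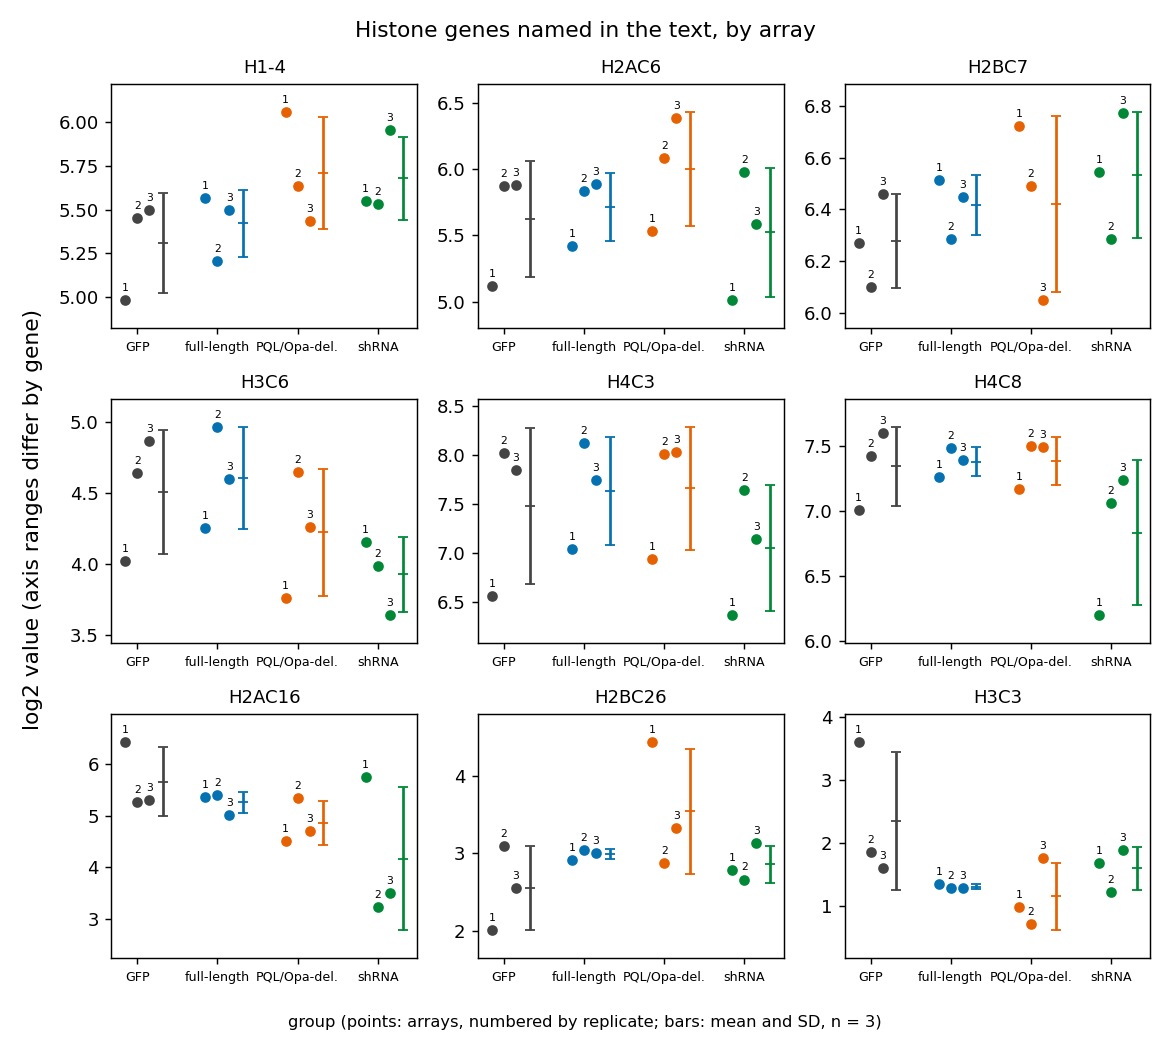
Log2 values of 9 histone genes on the 12 arrays, 1 panel per gene with its own axis range, points numbered by replicate and bars for the mean and SD of 3 arrays. In H4C3 and H4C8 replicate 1 is the lowest point of each group, in H2AC16 hairpin replicates 2 and 3 lie at 3.23 and 3.51, and in H3C3 the first GFP array lies at 3.61.

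**Figure D5:**
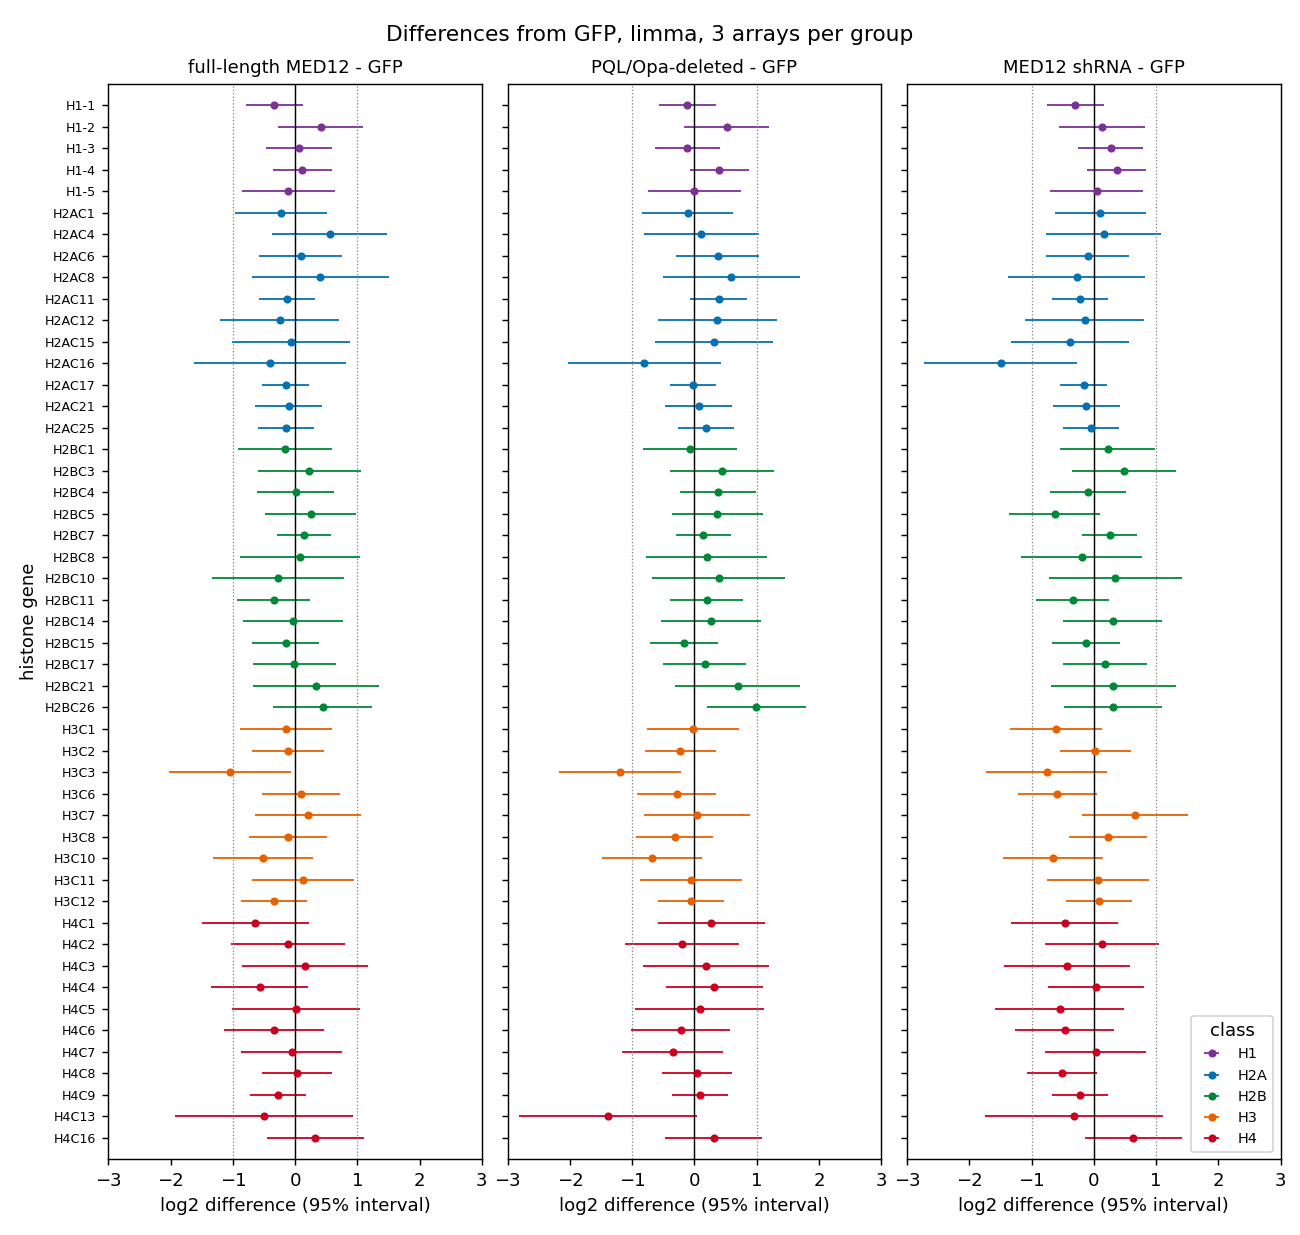
Log2 differences from GFP of the 49 histone genes with 95% intervals from limma, 1 panel per comparison, coloured by class; dotted lines mark 2-fold in either direction. In the full-length panel 27 intervals lie between the dotted lines, and in each of the other panels 24 do.

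Full-length MED12 was set against the PQL/Opa-deleted construct to ask about the deleted domains. The MED12 row itself read 1.76 higher on the log2 scale in the full-length group (adjusted limma p 0.0421), so the domains and the level of MED12 cannot be told apart here. Which parts of MED12 the probes of this row read was not checked. Of 49 histone genes, 15 were above and 34 below in the full-length group, with a median of -0.12, against -0.0016 over all rows and 49.7% of rows above 0. Of 13 H2B genes 12 were below, with a median of -0.21, of 11 H2A genes 9 were below, with a median of -0.19, and of 9 H3 genes 7 were above, with a median of 0.16. H4 genes had a median of -0.03. Without the narrow arrays, 9 of 13 H2B genes were below and 6 of 9 H3 genes above, 7 of 11 H2A genes were below with a median of -0.10, and the H4 median was -0.30. H2AC11 (3.54, 3.69 and 3.19 against 4.15, 3.89 and 3.94) differed by -0.52 (-0.98 to -0.06), with an unadjusted limma p of 0.0287. H4C4 (1.96, 3.13 and 3.31 against 4.03, 3.28 and 3.77) differed by -0.89, and H4C1 (1.98, 2.51 and 2.74 against 3.12, 3.29 and 3.54) by -0.91, with unadjusted limma p of 0.0281 and 0.0398. These were the 3 genes with an unadjusted p under 0.05, 6.12% of the genes against 1.9% of rows. The groups did not overlap for H2AC11, H2BC11 and H4C1, also 6.12% of the genes against 6.91% of rows. Without the narrow arrays, 5 histone genes had an unadjusted limma p under 0.05, all lower in the full-length group, against 4.32% of rows. They were H1-2, H2AC6, H2BC11, H4C1 and H4C9, so H2AC11 and H4C4 were no longer among them.

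Many H2A and H2B genes lie head to head and share the DNA between their starts. For 7 such pairs the RefSeq windows overlapped on opposite strands, by 253 to 293 bases: H2AC25 with H2BC26, H2AC1 with H2BC1, H2AC6 with H2BC4, H2AC8 with H2BC8, H2AC11 with H2BC11, H2AC15 with H2BC15, and H2AC17 with H2BC17. The H2AC6 stretch printed above is part of the DNA it shares with H2BC4. Both genes of a pair differed from GFP in the same direction in 6 of 7 pairs with full-length MED12, 5 with the PQL/Opa-deleted construct and 5 with the hairpin. The 3 counts share the GFP arrays. Agreement between H2A and H2B genes that are not pairs was not counted. With the PQL/Opa-deleted construct 8 of 11 H2A and 11 of 13 H2B genes were above GFP in any case. Without the narrow arrays the counts were 3, 5 and 4, an alternative added after the data were seen. H2AC6 and H2BC4 both differed by 0.38 with PQL/Opa-deleted MED12, and H2AC11 and H2BC11 by 0.39 and 0.20. With the hairpin the latter pair differed by -0.22 and -0.34, and by -0.16 and -0.60 without shRNA replicate 1. No gene of these pairs passed the test.

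The factors that make, process and deposit histones did not pass the test either. Of listed genes, 8 of 12 histone variants and 22 of 31 genes of histone transcription and end processing had a row with 1 symbol. So did 20 of 22 chaperones and 25 of 30 S phase genes. NPAT, H3-3A and H3-3B were not analysed here. None of the 4 lists had a gene past an adjusted limma p of 0.05 in any comparison. With the hairpin, 2 of 22 transcription and processing genes had an unadjusted limma p under 0.05, which is 9.09% against 5.04% of rows. They were CPSF3, the nuclease that cuts the histone transcript, and CASP8AP2, a histone locus body protein. CPSF3 read 5.58, 6.06 and 6.15 with GFP and 4.77, 5.62 and 5.28 with the hairpin, a difference of -0.71 with an adjusted limma p of 0.930. CASP8AP2 read 5.70, 5.79 and 5.95 with GFP and 4.85, 5.40 and 5.31 with the hairpin, a difference of -0.62 without overlap. Without shRNA replicate 1 the CPSF3 and CASP8AP2 differences were -0.48 and -0.45. CASP8AP2 was also below GFP without overlap with PQL/Opa-deleted MED12, at 4.68, 5.66 and 5.59, a difference of -0.51. That difference was -0.19 without PQL/Opa-deleted replicate 1 and -0.25 without the narrow arrays. SLBP read 4.68, 5.74 and 5.13 with GFP and 4.29, 4.94 and 4.81 with the hairpin, a difference of -0.50 (-1.06 to 0.06) that was -0.31 without shRNA replicate 1. LSM10 and LSM11, which belong to the particle that guides the cut, differed by -0.15 and -0.02. With full-length MED12 the smallest limma p of the transcription and processing list was that of the cleavage factor gene CSTF2. It was not under 0.05 before adjustment.

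Of 25 S phase genes 5 had an unadjusted limma p under 0.05 with the hairpin, 20.0% against 5.04% of rows; none did with either construct. The count with the hairpin was 3 without the narrow arrays (6.19% of rows) and 2 without shRNA replicate 1 (3.73% of rows). PRIM1, the catalytic primase subunit, read 5.13, 5.58 and 5.61 with GFP and 4.13, 5.14 and 4.61 with the hairpin, a difference of -0.81 with an adjusted limma p of 0.857. That difference was -0.56 without shRNA replicate 1. MCM6, RFC4 and CDC25A were also lower, and MCM5 was higher by 0.33. Medians over the list were 0.04 with full-length MED12, 0.03 with PQL/Opa-deleted MED12 and -0.12 with the hairpin (0.04 without shRNA replicate 1). With the hairpin the chaperone and variant lists had the same median of -0.12 and the processing list -0.11. The chaperone gene with the smallest p with the hairpin was ANP32E, at -0.51 (-0.23 without shRNA replicate 1), and with PQL/Opa-deleted MED12 NAP1L1, at -0.61, while CCNE2, which drives entry into S phase, differed by 0.37 with full-length MED12. Of the variants, H2AX, which is phosphorylated at DNA breaks, read 4.52, 4.05 and 4.09 with GFP and 3.76, 3.94 and 3.82 with PQL/Opa-deleted MED12, a difference of -0.38 without overlap (unadjusted limma p 0.0449) that was -0.23 without GFP replicate 1. H2AZ1, MACROH2A1 and the centromeric CENPA differed by -0.49, -0.44 and 0.23 with the hairpin, and by 0.18, -0.26 and 0.16 without shRNA replicate 1; none of these passed the test.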

How the data were processed

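Gene expression was measured in 12 HEK293 samples on Affymetrix exon arrays. The authors deposited log2 values for 22011 transcript clusters, made with RMA in Partek on hg18, per the submitters' processing notes, with tool versions and probe set level not given in the sources used here. Rows were named from the platform annotation: 14432 had 1 symbol, 2408 several and 5171 none. Signals are relative, so the precision rests on the number of arrays.

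The deposited log2 values were fitted in limma 3.58.1 (R 4.3.3) with 4 group means, all 12 arrays sharing 1 spread (8 residual and 3.52 prior degrees of freedom). The moderated tests looked at both directions, and p-values were adjusted by Benjamini and Hochberg's method across the whole table, with calls made under 0.05. The fit was tested on simulated data. Each p-value sets a group difference against the spread between these samples, moderated over all rows. The histone genes and the lists were chosen with earlier results of these data known. Genes were named where brightest in their class or of smallest p in 1 of 3 comparisons with GFP; list genes by smallest p, plus fixed core factors. H2BC14, H3C1, H4C4, H4C5, H4C9, the genes of small counts and the further S phase genes were named after their values were seen.

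Deviations of same-numbered arrays correlated at 0.101 to 0.229 (full-length and GFP), 0.149 to 0.472 (PQL/Opa-deleted and GFP), 0.0223 to 0.464 (shRNA and GFP) and 0.0761 to 0.240 (the constructs). By a limit of 0.1 in every pair, only the first 2 comparisons were treated as paired, in a separate fit with the replicate number as a block. Every interval and p-value not said to use the block comes from the main fit, which ignores the pairing. The highest values, 0.472 and 0.464, were between replicate 1 arrays that are narrow in both groups. The part of array width in them was not tested. Alternatives were this block, quantile normalization, a trend with robust moderation, only the groups compared, the lowest 25% of rows dropped, narrow arrays dropped, and each array dropped. The mean of all rows per gene equals the value used, as each gene has 1 row.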

Additional observations from a re-analysis of the deposited data

How the results depend on the processing

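Of 89 alternative counts of histone genes past the threshold, 88 were 0. The exception was 1 gene, H2AC16, with the hairpin when the narrow arrays were left out (-1.91, adjusted limma p 0.0386). That setting drops the hairpin array on which H2AC16 lay among the GFP values. With the replicate block limma called 0 histone genes in every comparison. The block moved the count at an unadjusted p under 0.05 from 1 to 6 with the hairpin (8.97% of rows), a comparison not treated as paired, and from 2 to 9 with PQL/Opa-deleted MED12. The median log2 difference over the histone genes with full-length MED12 was -0.015 over the 35 genes left when the lowest 25% of rows were dropped, and -0.15 to -1.8e-04 when 1 array was left out. With PQL/Opa-deleted MED12 it was 0.18 without the lowest 25% of rows, -0.0086 without the narrow arrays, and 0.048 to 0.12 when 1 array was left out.

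Of 27 differences of single genes, 19 kept their direction under each alternative run and 8 changed it at least once. With full-length MED12 the values without the narrow arrays were -0.051 for H1-4, -0.16 for H2AC6, -0.15 for H3C6 and -0.30 for H4C3, and quantile normalization gave -1.4e-04 for H2AC6. H2BC7 with PQL/Opa-deleted MED12 was -0.0086 without the narrow arrays, and H2AC6 with the hairpin was 0.042 after quantile normalization. Leaving out 1 array gave ranges of -0.051 to 0.22 for H1-4, -0.16 to 0.23 for H2AC6, -0.020 to 0.85 for H2AC4, -0.15 to 0.28 for H3C6 and -0.30 to 0.46 for H4C3 with full-length MED12. With PQL/Opa-deleted MED12 they were -0.0061 to 0.33 for H2BC7 and -0.27 to 0.55 for H4C3, and with the hairpin -0.35 to 0.16 for H2AC6. The cause was not tested. The number of arrays, 3 per group, limits what these values can show.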

Other observations

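Another 10 histone genes lie on 5 rows that name several genes, and their values cannot be given to 1 gene. On row 2946714 the GFP arrays read 4.76, 4.64 and 4.52, the full-length arrays 2.44, 4.58 and 4.70, the PQL/Opa-deleted arrays 3.03, 3.70 and 4.39, and the hairpin arrays 3.54, 4.52 and 4.27. The PQL/Opa-deleted and hairpin arrays lay below GFP without overlap, by -0.94 and -0.53, and neither passed the test. Row 2947040 read 3.17, 3.82 and 2.95 with GFP, 3.27, 1.27 and 1.03 with PQL/Opa-deleted MED12 and 4.50, 1.38 and 4.57 with the hairpin, so the arrays of a group differed more than the groups.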
